A study of Mus musculus with 10 samples.

Results

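The 9 genes described here encode the calcium-activated phosphatase calcineurin, NFAT transcription factors, all but Nfat5 acted on by calcineurin, and the calcineurin feedback inhibitor Rcan1. They were taken by name (Nfatc1, Nfatc2, Nfatc3, Nfat5, Rcan1, Ppp3ca, Ppp3cb, Ppp3cc and Ppp3r1), and all 9 had probes on the array: 14 of 25344 probes, or 9 of 18300 genes with a symbol. Rcan1 was listed under its older symbol Dscr1. Splenic B cells came from female mice, 2 months old, whose genotype was labelled Ptger4-/- or Ptger4+/+, and their RNAs were hybridised in pairs to 10 mouse oligonucleotide arrays with 2 dyes. The product of Ptger4 is the EP4 receptor, through which prostaglandin E2 (PGE2) raises cyclic AMP. A pair of arrays with the dyes exchanged was given to each of 5 comparisons: Ptger4-/- cells with F(ab')2 fragments of antibodies to IgM (anti-IgM) for 2 h over Ptger4-/- cells in medium for 2 h, and the same in Ptger4+/+ cells; Ptger4-/- cells with anti-IgM and PGE2 for 24 h over Ptger4-/- cells with anti-IgM alone for 24 h, and the same in Ptger4+/+ cells; and Ptger4-/- over Ptger4+/+ cells, both with anti-IgM and PGE2 for 24 h. All cells at 24 h therefore carried anti-IgM. The labels gave no strain, no dose of anti-IgM or PGE2, and no word on whether animals were pooled or whether the exchanged arrays shared RNA extracts. The p-values may thus cover technical spread alone.

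Calcineurin is a phosphatase made of a catalytic subunit, encoded by Ppp3ca, Ppp3cb or Ppp3cc, and a calcium-binding regulatory subunit, encoded in most cells by Ppp3r1. When the B cell receptor opens calcium channels, calmodulin activates calcineurin, which removes phosphates from Nfatc1, Nfatc2 and Nfatc3 so that these factors enter the nucleus. Nfat5 is a relative that responds to osmotic stress and is not controlled by calcineurin. Nfatc1 and Rcan1 are themselves known NFAT target genes in lymphocytes, and the Rcan1 protein binds calcineurin and inhibits it.

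Every value below is a log2 ratio between the RNAs of an array, so it gives a difference and never a level, and the abundance of the genes in these cells could not be ordered. No values were missing, array medians lay between 0.000895 and 0.0148, and precision was limited by having 2 arrays a comparison. The sources used here gave neither the log base nor the channel on top. Values were read as log2 of Cy5 over Cy3. On that reading 8 of 19 immediate-early genes, none of them among the 9 genes, stood 2-fold or more above their medium controls on all 4 arrays at 2 h and 0 stood as far below, so the direction is likely. Natural logs would make each log2 value 1.44 times larger. Ptger4 itself had 1 probe, which showed no loss that passed the test in the RNA labelled Ptger4-/-. With PGE2 the probe passed as higher in Ptger4-/- over Ptger4+/+ cells, at 0.46 and 0.52 on the arrays (mean 0.49 ± 0.07, limma adjusted p = 0.00207). Without PGE2, through the chain of the 24 h arrays, it stood at -0.14 ± 0.12 (limma adjusted p = 0.788). PGE2 moved that probe by 0.04 ± 0.07 in cells labelled Ptger4-/- (limma adjusted p = 0.933). In Ptger4+/+ cells PGE2 moved it by -0.59 ± 0.07 (limma adjusted p = 0.000964). The difference of these responses, Ptger4-/- minus Ptger4+/+, was 0.63 ± 0.10 (limma adjusted p = 0.00647). The place of that probe in the gene was not given; if it lies outside the deleted stretch it is no check of the label, so the cells are called as labelled. In RNA of whole cell preparations, fewer cells of a type and less RNA per cell cannot be told apart.

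Standard errors (SE) are those of 1 limma fit over all 10 arrays with a dye effect, and adjusted p-values are limma's after Benjamini-Hochberg adjustment over 22533 features, with a limit of 0.05. Fits on only the arrays compared, given where named, also left out the dye effect. Arrays 1 and 2 of a comparison are named in order of deposit and carry no pairing between comparisons.

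Anti-IgM for 2 h raised Nfatc1 and lowered Ppp3ca and Ppp3cc in cells of both genotypes. The mean of the Nfatc3 probes also fell in both, but only its second probe did when probes were read singly. Ppp3r1 fell in both as well, but its call in cells labelled Ptger4-/- was lost without the dye effect and on only the arrays compared. Both comparisons ask what B cell receptor stimulation does early. In cells labelled Ptger4-/-, 6 of the 9 genes passed the test, 2 higher and 4 lower, where 23.3% of all features passed (11.6% higher and 11.7% lower). In Ptger4+/+ cells 5 passed, 1 higher and 4 lower, where 21.1% of all features passed (9.71% higher and 11.4% lower). The median of the 9 genes was -0.11 in cells labelled Ptger4-/- and -0.12 in Ptger4+/+ cells, against 0.00 over all features in either. All 9 had the same sign on both arrays in cells labelled Ptger4-/-, and 8 had in Ptger4+/+ cells, Ppp3cb being the exception.

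**Figure D1:**
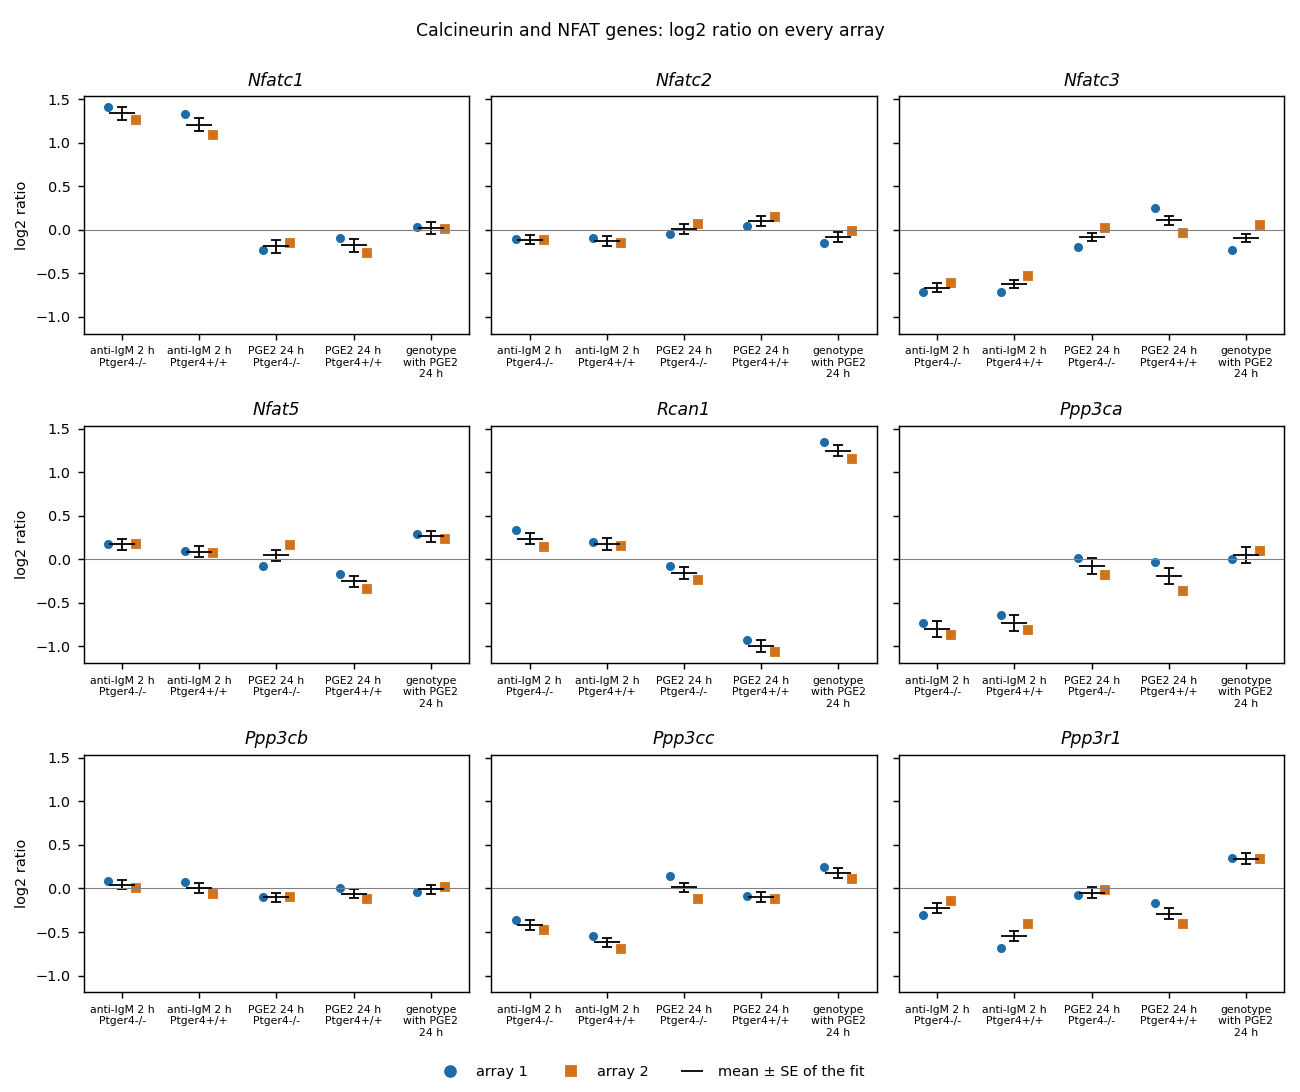
Log2 ratio (y axis) of each of the 9 genes on array 1 (circles) and array 2 (squares) of each comparison (x axis), with the mean and SE of the fit as black bars. Nfatc1 stands above 1 on all 4 arrays at 2 h, and Rcan1 stands apart in the last 2 comparisons, at -0.93 and -1.07 with PGE2 in Ptger4+/+ cells and at 1.35 and 1.15 between the genotypes.

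Nfatc1 encodes the NFAT factor that is itself induced by antigen receptor signals. It had log2 ratios of 1.41 and 1.26 on the arrays of cells labelled Ptger4-/-, against 1.33 and 1.09 on those of Ptger4+/+ cells. All 4 values were high, and those of the genotypes overlapped. The rise was 2.53-fold in cells labelled Ptger4-/- (log2 1.34 ± 0.07, SE, n = 2 arrays, limma adjusted p = 1.32e-05) and 2.31-fold in Ptger4+/+ cells (log2 1.21 ± 0.07, SE, n = 2 arrays, limma adjusted p = 2.8e-05). Among all 22533 features Nfatc1 ranked 220 from the top in cells labelled Ptger4-/- and 199 in Ptger4+/+ cells. Its 2 probes both rose but by unequal amounts. The first gave 1.85 and 1.46 in cells labelled Ptger4-/- and 1.62 and 1.22 in Ptger4+/+ cells. The second gave 0.97 and 1.07 in cells labelled Ptger4-/- and 1.04 and 0.95 in Ptger4+/+ cells. The lowest value of the first probe thus lay above the highest of the second.

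At 24 h Nfatc1 did not pass the test in any comparison. With PGE2 its ratio was -0.19 ± 0.07 in cells labelled Ptger4-/- (limma adjusted p = 0.537) and -0.18 ± 0.07 in Ptger4+/+ cells (limma adjusted p = 0.112), below 0 on all 4 arrays. Tested singly, its second probe passed with PGE2 in Ptger4+/+ cells, at -0.17 and -0.39 on the arrays (mean -0.28 ± 0.06, limma adjusted p = 0.0138). In Ptger4-/- over Ptger4+/+ cells with PGE2 the gene stood at 0.03 and 0.00.

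The genes whose 10 array values lay nearest to those of Nfatc1, by Euclidean distance among 18299 other genes, were Zfp593, Plcxd2 and Zmynd19. Zfp593 lay at a distance of 0.353 (Pearson's r = 0.99 over 10 arrays), Plcxd2 at 0.362 (r = 0.99) and Zmynd19 at 0.368 (r = 0.99). These arrays share comparisons and RNA sources, and the correlations are descriptions only. Zfp593, a zinc finger gene, rose at 2 h by 1.34 ± 0.07 in cells labelled Ptger4-/- and 1.37 ± 0.07 in Ptger4+/+ cells.

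Nfatc2, which encodes the NFAT factor stored ready-made in resting lymphocytes, passed in no comparison. At 2 h it stood at -0.10 and -0.12 in cells labelled Ptger4-/- and at -0.09 and -0.16 in Ptger4+/+ cells. All 4 values were slightly below 0, with a mean of -0.11 ± 0.06 in cells labelled Ptger4-/- (limma adjusted p = 0.226) and -0.12 ± 0.06 in Ptger4+/+ cells (limma adjusted p = 0.186). At 24 h its means ran between -0.08 and 0.10.

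Nfatc3, another calcineurin-controlled factor, fell 1.58-fold at 2 h in cells labelled Ptger4-/- (log2 -0.66 ± 0.05, SE, n = 2 arrays, limma adjusted p = 4.53e-05). In Ptger4+/+ cells it fell 1.54-fold (log2 -0.62 ± 0.05, SE, n = 2 arrays, limma adjusted p = 7.72e-05). Both means hide a disagreement between its 2 probes. The first probe gave -0.06 and -0.01 in cells labelled Ptger4-/- and -0.09 and 0.20 in Ptger4+/+ cells. The second gave -1.38 and -1.21 in cells labelled Ptger4-/- and -1.33 and -1.26 in Ptger4+/+ cells. Only the second probe passed when probes were tested singly, at -1.29 ± 0.07 in either genotype, with limma adjusted p = 1.02e-05 in cells labelled Ptger4-/- and 1.37e-05 in Ptger4+/+ cells. The places of the probes in the gene were not given, and whether they read different transcripts was not tested. At 24 h Nfatc3 passed in no comparison.

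**Figure D2:**
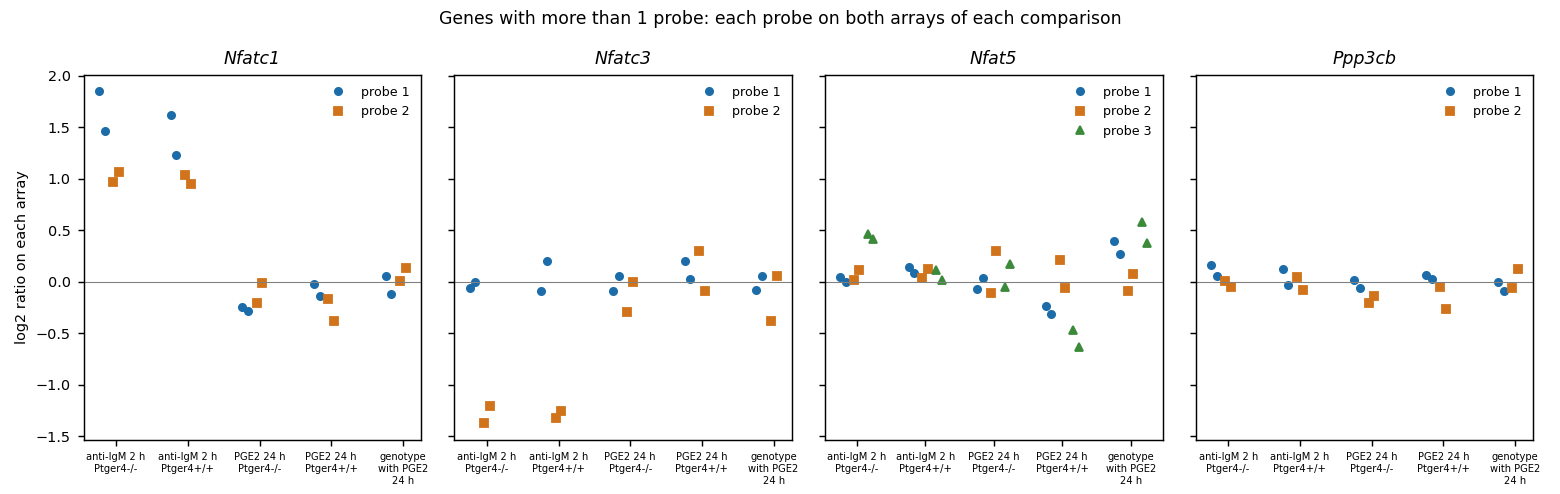
Log2 ratio (y axis) of each probe of the 4 genes with more than 1 probe, on both arrays of each comparison (x axis). The 2 probes of Nfatc3 separate at 2 h, with 1 near 0 and the other between -1.38 and -1.21, and the last probe of Nfat5 shows the largest PGE2 values of that gene, -0.48 and -0.63 in Ptger4+/+ cells.

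Nfat5, the osmotic stress factor, did not pass at 2 h: its ratio was 0.17 and 0.17 on the arrays of cells labelled Ptger4-/- (mean 0.17 ± 0.06, limma adjusted p = 0.0972) and 0.09 and 0.08 on those of Ptger4+/+ cells (mean 0.08 ± 0.06, limma adjusted p = 0.445). Of its 3 probes only the last passed in cells labelled Ptger4-/-, at 0.46 and 0.41 (limma adjusted p = 0.00465), while it stood at 0.11 and 0.02 in Ptger4+/+ cells. The difference between genotypes for that probe was 0.37 ± 0.11 and did not pass (limma adjusted p = 0.163). The other 2 probes lay between -0.00 and 0.14 on the 4 arrays.

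The calcineurin subunits fell or stayed near 0 at 2 h. Ppp3ca, which encodes the alpha catalytic subunit, had ratios of -0.73 and -0.87 on the arrays of cells labelled Ptger4-/- and -0.65 and -0.82 on those of Ptger4+/+ cells. All 4 were low and the genotypes overlapped. The fall was 1.74-fold in cells labelled Ptger4-/- (log2 -0.80 ± 0.09, SE, n = 2 arrays, limma adjusted p = 0.000543) and 1.66-fold in Ptger4+/+ cells (log2 -0.73 ± 0.09, SE, n = 2 arrays, limma adjusted p = 0.00104). Ppp3cc, the gamma catalytic subunit gene, stood at -0.37 and -0.48 in cells labelled Ptger4-/- and at -0.54 and -0.70 in Ptger4+/+ cells. Its fall was 1.34-fold in cells labelled Ptger4-/- (log2 -0.42 ± 0.06, limma adjusted p = 0.00102) and 1.54-fold in Ptger4+/+ cells (log2 -0.62 ± 0.06, limma adjusted p = 0.000177). The genotypes' arrays did not overlap, and the difference of 0.20 ± 0.08 in Ptger4-/- minus Ptger4+/+ did not pass (limma adjusted p = 0.336). Ppp3cb, the beta catalytic subunit gene, did not move beyond its spread: with 2 probes averaged it gave 0.08 and 0.00 in cells labelled Ptger4-/- and 0.08 and -0.06 in Ptger4+/+ cells, and no probe of it passed in any comparison. Its 95% interval at 2 h, not adjusted for the number of features, was -0.09 to 0.17 in cells labelled Ptger4-/- and -0.12 to 0.14 in Ptger4+/+ cells.

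Ppp3r1, the regulatory subunit gene, had ratios of -0.31 and -0.14 in cells labelled Ptger4-/-, against -0.68 and -0.41 in Ptger4+/+ cells. The values of the genotypes did not overlap. The fall was 1.17-fold in cells labelled Ptger4-/- (log2 -0.22 ± 0.06, limma adjusted p = 0.0324) and 1.46-fold in Ptger4+/+ cells (log2 -0.55 ± 0.06, limma adjusted p = 0.000497). The difference between the responses, 0.32 ± 0.08 in Ptger4-/- minus Ptger4+/+, did not pass (limma adjusted p = 0.127). Without array 1 or array 2 of the Ptger4-/- pair, the fall in those cells no longer passed (limma adjusted p = 0.235 and 0.197), nor did it in a fit without the dye effect (limma adjusted p = 0.165) or on only the arrays compared (limma adjusted p = 0.191).

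Ordered by their ratio in Ptger4+/+ cells at 2 h, Ppp3ca, Ppp3cc, Nfatc3 and Ppp3r1 came lowest, and neighbours in that order overlapped on their arrays. Then followed Nfatc2, Ppp3cb, Nfat5 and Rcan1, between -0.12 and 0.17, with Nfatc1 far above at 1.21. In cells labelled Ptger4-/- the order began with Ppp3ca, Nfatc3, Ppp3cc and Ppp3r1 and ended with Rcan1 at 0.24 and Nfatc1 at 1.34.

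None of the 9 genes passed the test of a difference between the anti-IgM responses of the genotypes, where 1.74% of all features did (1.13% higher and 0.608% lower). At an unadjusted p under 0.05 limma counted 2 of the 9, Ppp3cc and Ppp3r1, and 13.4% of all features. The differences ran between -0.07 for Ppp3ca and 0.32 for Ppp3r1. For Nfatc1 the 95% interval of the difference was -0.11 to 0.37, not adjusted for the number of features.

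Of the 9 genes, Rcan1 had the PGE2 ratio farthest from 0. It has 2 starts in the RefSeq table of GRCm38.p6, an upstream one and an internal one, and the internal start is known as the calcineurin- and NFAT-driven one. Both promoters are shown because the cells received anti-IgM, which is known to activate NFAT, and PGE2, which is known to raise cyclic AMP. Each runs 250 bases before to 50 bases after the start, on the minus strand, at chr16:92466120-92466419 for the upstream and chr16:92400029-92400328 for the internal start. Capitals mark matches on either strand to GGAAA, the core bound by NFAT, TGACGTCA, the cyclic AMP response element, and TGAGTCA, an AP-1 site.
Rcan1 upstream start: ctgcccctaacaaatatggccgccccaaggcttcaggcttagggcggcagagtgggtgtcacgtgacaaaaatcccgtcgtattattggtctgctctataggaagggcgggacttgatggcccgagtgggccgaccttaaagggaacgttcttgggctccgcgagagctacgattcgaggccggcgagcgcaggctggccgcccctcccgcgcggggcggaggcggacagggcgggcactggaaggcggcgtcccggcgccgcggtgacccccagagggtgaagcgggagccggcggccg
Rcan1 internal start: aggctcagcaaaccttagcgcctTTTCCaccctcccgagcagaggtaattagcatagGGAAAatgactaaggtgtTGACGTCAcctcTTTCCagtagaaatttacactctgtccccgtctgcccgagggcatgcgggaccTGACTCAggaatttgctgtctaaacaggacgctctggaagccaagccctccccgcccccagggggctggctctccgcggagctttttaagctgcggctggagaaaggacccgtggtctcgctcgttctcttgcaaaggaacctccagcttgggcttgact

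The internal promoter held 3 matches to GGAAA, 1 to TGACGTCA and 1 to TGAGTCA, none overlapping, and the upstream promoter held 0 of each. Of all 32851 promoters in that table, 61.3% held at least 1 GGAAA and 9.42% held at least 3, while 1.79% held TGACGTCA and 5.20% held TGAGTCA. A match describes the letters and is no evidence that a factor bound there. Promoters of 6 of the 9 genes were searched, and those of Nfatc1, Ppp3ca and Ppp3cc were not. Among the promoters of the other 5 genes, that of Ppp3cb held 4 matches to GGAAA and 1 of Nfatc2 held 3. None of these promoters held TGACGTCA or TGAGTCA. Which start the Rcan1 probe reads was not given.

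At 2 h Rcan1 changed little. Its ratio was 0.33 and 0.14 on the arrays of cells labelled Ptger4-/-, against 0.19 and 0.15 on those of Ptger4+/+ cells, all above 0 and overlapping. It passed in cells labelled Ptger4-/- (mean 0.24 ± 0.07, limma adjusted p = 0.0382) and not in Ptger4+/+ cells (mean 0.17 ± 0.07, limma adjusted p = 0.123). That call was lost when any of 8 arrays was left out, with limma adjusted p between 0.0539 and 0.348, and was kept when array 1 or 2 of the PGE2 pair of Ptger4+/+ cells was left out. It was also lost without the dye effect (limma adjusted p = 0.1) and on only the arrays compared (limma adjusted p = 0.171). The Ptger4+/+ value passed without either array of that pair (limma adjusted p = 0.0442). The difference between the genotypes was 0.06 ± 0.09 (limma adjusted p = 0.882).

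At 24 h PGE2 lowered Rcan1 in Ptger4+/+ cells and not detectably in cells labelled Ptger4-/-. This pair of comparisons asks what PGE2 adds to anti-IgM in cells of each genotype label. In cells labelled Ptger4-/- the ratio of anti-IgM with PGE2 over anti-IgM alone was -0.08 and -0.24 (mean -0.16 ± 0.07, SE, n = 2 arrays, limma adjusted p = 0.588). In Ptger4+/+ cells it was -0.93 and -1.07, a fall of 2.00-fold (log2 -0.997 ± 0.07, SE, n = 2 arrays, limma adjusted p = 0.000117). The arrays of the genotypes did not overlap, and the difference of the responses, Ptger4-/- minus Ptger4+/+, was 0.84 ± 0.09 (limma adjusted p = 0.00204, 95% interval 0.62 to 1.06, not adjusted for the number of features). Fitted on those 4 arrays alone and without a dye effect, the difference had limma adjusted p = 0.0703. In Ptger4+/+ cells Rcan1 ranked 240 from the lowest of 22533 features with PGE2.

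Of the 9 genes, 0 passed with PGE2 in cells labelled Ptger4-/-, where 0.146% of all features passed by limma (0.00888% higher and 0.138% lower). At an unadjusted p under 0.05 limma counted 2, Nfatc1 and Rcan1, and 8.34% of all features. The log2 ratios of the 2 arrays of this comparison had Pearson's r = -0.21 over 25344 probes, against 0.39 for the pair of Ptger4+/+ cells. An absence of calls there does not by itself show an absence of response. The fit gave each of the 9 genes the same SE in this comparison as in that of Ptger4+/+ cells. In cells labelled Ptger4-/- the 95% interval with PGE2 was -0.313 to -0.00339 for Rcan1. It was -0.188 to 0.0926 for Ppp3r1 and -0.102 to 0.189 for Nfat5. These intervals were not adjusted for the number of features. In Ptger4+/+ cells 3 passed, all lower (Rcan1, Ppp3r1 and Nfat5), where 26.1% of all features passed (9.11% higher and 17% lower). Set against these shares, 3 of 9 genes is not read as particular to the group. Without the dye effect, or on only the arrays compared, Rcan1 alone of the 3 passed. The median of the 9 genes was -0.08 in cells labelled Ptger4-/- and -0.18 in Ptger4+/+ cells, against 0.00 and 0.01 over all features. The difference of the PGE2 responses passed for 1 of the 9, Rcan1, where 12.7% of all features passed (9.33% higher and 3.33% lower).

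Ppp3r1 stood at -0.07 and -0.02 with PGE2 in cells labelled Ptger4-/- (mean -0.05 ± 0.06, limma adjusted p = 0.915) and at -0.17 and -0.41 in Ptger4+/+ cells (mean -0.29 ± 0.06, limma adjusted p = 0.0117). All 4 values were below 0 and the genotypes did not overlap. The difference was 0.24 ± 0.08 and did not pass (limma adjusted p = 0.12). Without array 2 of the Ptger4+/+ pair, the Ppp3r1 call was lost (log2 -0.23, limma adjusted p = 0.166).

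Nfat5 stood at -0.08 and 0.17 with PGE2 in cells labelled Ptger4-/- (mean 0.04 ± 0.06, limma adjusted p = 0.927) and at -0.17 and -0.34 in Ptger4+/+ cells (mean -0.25 ± 0.06, limma adjusted p = 0.023). The difference of the responses was 0.30 ± 0.09 (limma adjusted p = 0.0732). Its probes differed here too. In Ptger4+/+ cells the first gave -0.23 and -0.31, the second 0.21 and -0.07, and the last of the 3 gave -0.48 and -0.63. Tested singly, the first and the last passed (limma adjusted p = 0.00898 and 0.00198), and the last also passed for the difference of the responses, at 0.61 ± 0.11 (limma adjusted p = 0.0114). The Nfat5 call in Ptger4+/+ cells was lost without array 1 (log2 -0.32, limma adjusted p = 0.0657) and without array 2 (log2 -0.19, limma adjusted p = 0.259), and when arrays were centred and scaled (limma adjusted p = 0.0935).

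The catalytic subunits did not pass with PGE2. Ppp3ca stood at 0.02 and -0.18 in cells labelled Ptger4-/- and at -0.03 and -0.36 in Ptger4+/+ cells. Without array 1 of the Ptger4+/+ pair, Ppp3ca passed there (log2 -0.41, limma adjusted p = 0.0291). Ppp3cb and Ppp3cc had means between -0.10 and 0.01 in either genotype. Nfatc3 stood at -0.19 and 0.02 in cells labelled Ptger4-/- and at 0.25 and -0.03 in Ptger4+/+ cells, each pair on both sides of 0.

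**Figure D3:**
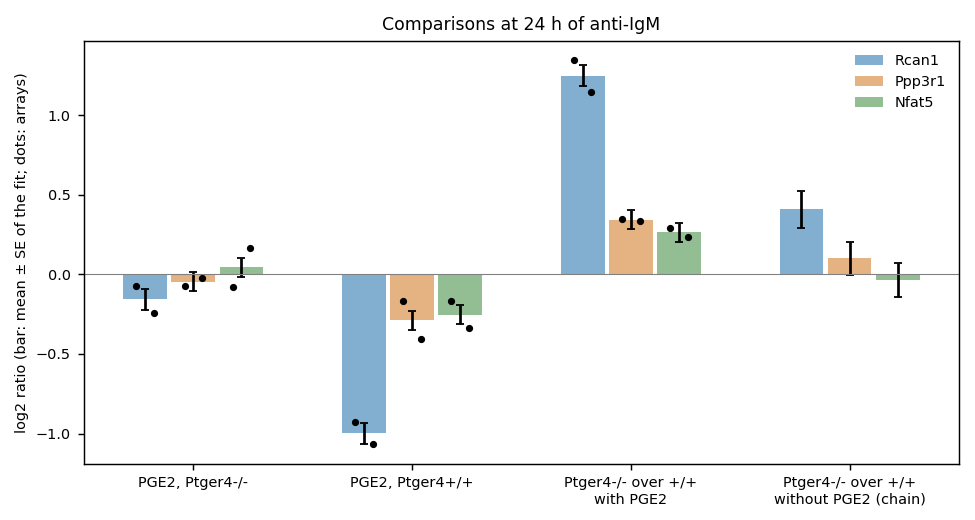
Log2 ratio (y axis) of Rcan1, Ppp3r1 and Nfat5 in the comparisons at 24 h (x axis), with bars for the mean and SE of the fit and dots for the arrays; the last set of bars is computed through the other arrays and has no dots. Rcan1 stands at -0.16 with PGE2 in Ptger4-/- cells, at -0.997 in Ptger4+/+ cells and at 1.25 between the genotypes.

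With anti-IgM and PGE2 for 24 h, Rcan1 was 2.37-fold higher in cells labelled Ptger4-/- than in Ptger4+/+ cells. Its log2 ratio was 1.35 and 1.15 on the arrays (mean 1.25 ± 0.07, SE, n = 2 arrays, limma adjusted p = 2.83e-05). It ranked 224 from the top of 22533 features. In all, 3 of the 9 genes passed, each higher in cells labelled Ptger4-/- (Rcan1, Ppp3r1 and Nfat5), where 26.9% of all features passed (15.9% higher and 11% lower). This count too is not read as particular to the group. On only the arrays compared, Rcan1 alone passed. By their labels both groups here are those given PGE2 in the preceding comparisons, so the recurrence of these 3 genes is no separate evidence. Ppp3r1 stood at 0.35 and 0.34 (mean 0.34 ± 0.06, limma adjusted p = 0.0056), and without array 1 this call was lost (log2 0.25, limma adjusted p = 0.126). Nfat5 stood at 0.29 and 0.24 (mean 0.26 ± 0.06, limma adjusted p = 0.0193), and its call was lost without array 1 (limma adjusted p = 0.283) or array 2 (limma adjusted p = 0.0698). Ppp3cc, at 0.25 and 0.10, did not pass (mean 0.18 ± 0.06, limma adjusted p = 0.0542). Without either array of the PGE2 pair of Ptger4+/+ cells, Ppp3cc passed (limma adjusted p = 0.0329). The remaining 5 genes lay between -0.09 and 0.05.

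Through the chain of the 24 h arrays, the genotypes could also be compared with anti-IgM alone. Rcan1 was then at 0.41 ± 0.11, 1.33-fold higher in cells labelled Ptger4-/-, and did not pass (limma adjusted p = 0.479, 95% interval 0.14 to 0.67, not adjusted for the number of features). None of the 9 genes passed there by limma, where 0.00444% of all features did; at an unadjusted p under 0.05 there was 1, Rcan1, and 7.75% of all features. The other 8 lay between -0.07 and 0.10.

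**Figure D4:**
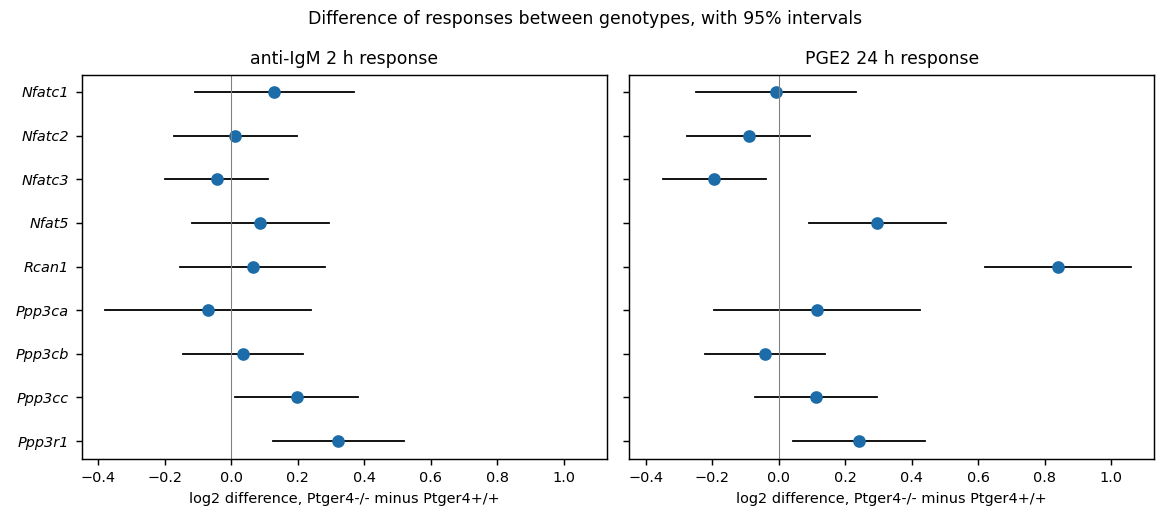
Difference of the response between the genotypes, Ptger4-/- minus Ptger4+/+, on the log2 scale (x axis), for each of the 9 genes (y axis), with anti-IgM at 2 h (left) and with PGE2 at 24 h (right); lines are 95% intervals, not adjusted for the number of features. Rcan1 with PGE2, at 0.84, is the point farthest from 0 and the 1 that passed the limma test.

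The genes nearest to Rcan1 over the 10 arrays were Axl, Aup1 and Psmc6. Axl, a receptor tyrosine kinase gene, lay at a distance of 0.271 (Pearson's r = 0.996 over 10 arrays, as a description). Aup1 lay at 0.396 and Psmc6, a proteasome subunit gene, at 0.460 (r = 0.99 each). With PGE2, Axl had -0.02 and -0.15 in cells labelled Ptger4-/- and -0.84 and -1.03 in Ptger4+/+ cells, and it stood at 1.29 and 0.99 between the genotypes. The nearest gene to Nfatc3 was Myo1f (distance 0.266), to Ppp3ca Oma1 (0.263), to Ppp3cc Cds2 (0.191), to Ppp3r1 Fcrla (0.270) and to Nfat5 Tnpo3 (0.181). For Nfatc3 the distance used the mean of 2 probes that disagreed at 2 h, a profile that neither probe showed.

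Around the 9 genes, 94 of 100 listed genes of calcium and NFAT signalling in 8 lists were measured. The known NFAT targets moved most at 2 h: 11 of 17 rose in cells labelled Ptger4-/- and 12 of 17 in Ptger4+/+ cells, and 0 fell in either, where 11.6% of all features rose in cells labelled Ptger4-/- and 9.71% in Ptger4+/+ cells. Their medians were 0.61 in cells labelled Ptger4-/- and 0.57 in Ptger4+/+ cells, against 0.00 over all features in both. The transcription factor gene Egr2 stood at 3.24 ± 0.06 in cells labelled Ptger4-/- and 3.21 ± 0.06 in Ptger4+/+ cells, and Myc, a driver of cell growth, at 2.55 ± 0.04 in cells labelled Ptger4-/- and 2.60 ± 0.04 in Ptger4+/+ cells. The list shares genes with those that set the sign of the ratios, so its direction is no independent result. With PGE2 at 24 h, 0 of the 17 passed in cells labelled Ptger4-/-, while 8 fell and 1 rose in Ptger4+/+ cells, where 17% of all features fell and 9.11% rose. The chemokine gene Ccl3 stood there at -1.27 ± 0.08 and Egr2 at -0.73 ± 0.06. The difference of the PGE2 responses passed for 6 of the 17, all higher in Ptger4-/- minus Ptger4+/+, where 9.33% of all features passed as higher.

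Among 13 measured kinases that phosphorylate NFAT proteins, 0 passed with PGE2 in cells labelled Ptger4-/-, while 8 fell and 0 rose in Ptger4+/+ cells. Their median was -0.05 in cells labelled Ptger4-/- and -0.34 in Ptger4+/+ cells, against 0.00 and 0.01 over all features. The kinases' count of 8 lower in 13 stands beside 17% lower over all features. Dyrk1a, a kinase gene whose product prepares NFAT for export from the nucleus, had -0.70 and -0.40 in Ptger4+/+ cells (mean -0.55 ± 0.06), and Mapk14, which encodes a p38 kinase, had -0.74 and -0.41 (mean -0.58 ± 0.06). Between the genotypes with PGE2, 7 of the 13 were higher in cells labelled Ptger4-/- and 0 lower, where 15.9% of all features were higher and 11% lower. Among the 7 were Csnk1e, a casein kinase gene, at 0.85 ± 0.08 and Dyrk1a at 0.71 ± 0.06. The difference of the PGE2 responses passed for 7 of 13, all higher in Ptger4-/- minus Ptger4+/+. Over all features 9.33% passed as higher and 3.33% as lower. Dyrk1a was among the 7, at 0.49 ± 0.08. At 2 h the kinases split, with 3 rises and 3 falls in cells labelled Ptger4-/- and 1 rise and 4 falls in Ptger4+/+ cells. Over all features, 11.6% rose and 11.7% fell in cells labelled Ptger4-/-, and 9.71% rose and 11.4% fell in Ptger4+/+ cells. Mapk14 fell in both, to -0.94 ± 0.06 in cells labelled Ptger4-/- and -0.997 ± 0.06 in Ptger4+/+ cells.

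**Figure D5:**
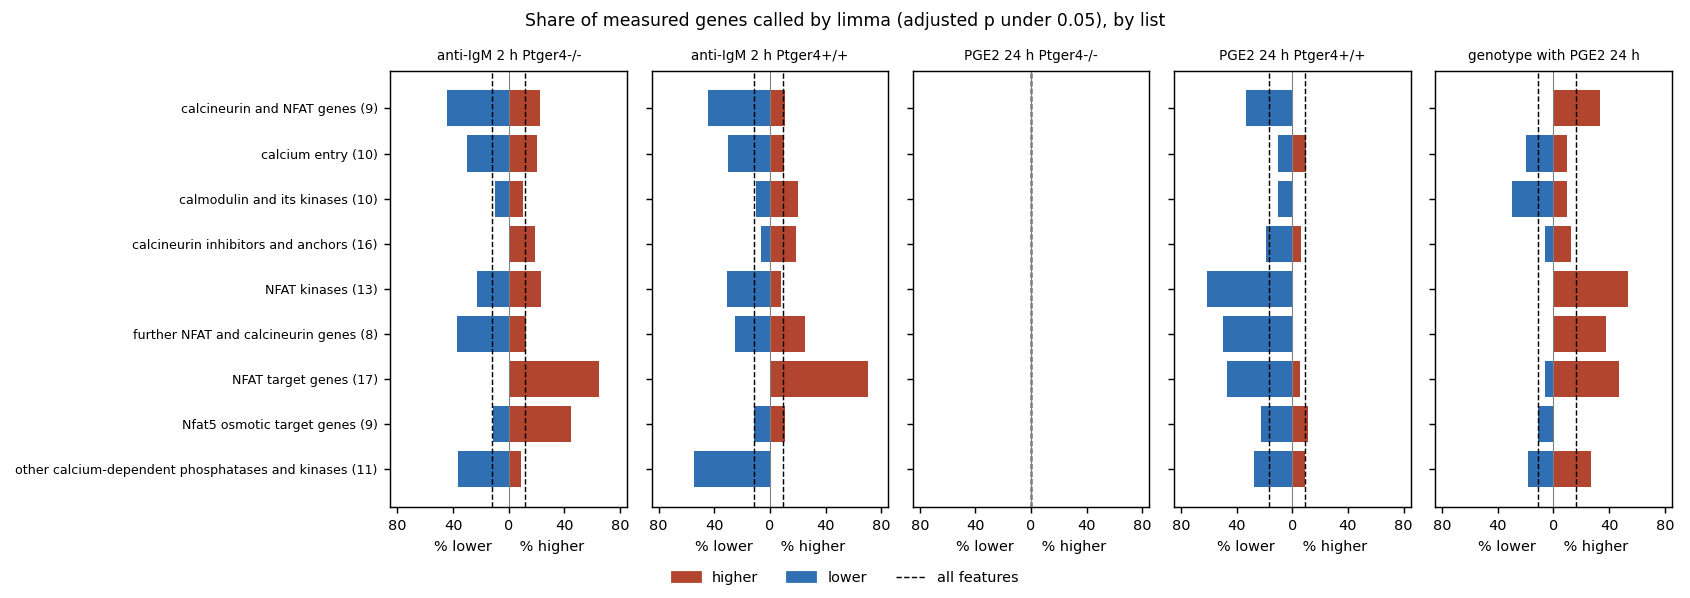
Percent of the measured genes of each list (rows, with the number measured) that limma called higher (right) or lower (left) in each comparison (panels); dashed lines mark the same percent over all features. The NFAT targets stand out at 2 h, the NFAT kinases with PGE2 in Ptger4+/+ cells, and no listed gene was called with PGE2 in Ptger4-/- cells.

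The family members and carriers outside the 9 genes included Xpo1, which encodes the exporter that takes NFAT out of the nucleus. Xpo1 had -0.25 and -0.45 with anti-IgM in cells labelled Ptger4-/- (mean -0.35 ± 0.07) and -1.06 and -1.30 in Ptger4+/+ cells (mean -1.18 ± 0.07). The arrays did not overlap and the difference passed (0.83 ± 0.10, limma adjusted p = 0.0222). Nfatc2ip, which encodes a protein that binds Nfatc2, passed the other way (difference -0.62 ± 0.09, limma adjusted p = 0.03). These were the 2 of 8 genes that passed that test, where 1.13% of all features were higher and 0.608% lower. In Ptger4+/+ cells PGE2 lowered Xpo1 to a log2 ratio of -1.51 ± 0.07, and the difference of the PGE2 responses, Ptger4-/- minus Ptger4+/+, was 1.46 ± 0.10. The importin gene Kpnb1 rose at 2 h by 0.88 ± 0.06 in cells labelled Ptger4-/- and 0.45 ± 0.06 in Ptger4+/+ cells. Of the 8 genes of this list, 1 rose and 3 fell with anti-IgM in cells labelled Ptger4-/-, where 11.6% of all features rose and 11.7% fell. In Ptger4+/+ cells 2 rose and 2 fell, where 9.71% of all features rose and 11.4% fell. With PGE2, 0 passed in cells labelled Ptger4-/-, while 4 fell and 0 rose in Ptger4+/+ cells, where 17% of all features fell.

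Of 10 calcium entry genes, 2 rose and 3 fell at 2 h in cells labelled Ptger4-/-, and 1 rose and 3 fell in Ptger4+/+ cells. Over all features 11.6% rose and 11.7% fell in cells labelled Ptger4-/-, and 9.71% rose and 11.4% fell in Ptger4+/+ cells. The store-operated channel gene Orai1 rose by 0.50 ± 0.07 in cells labelled Ptger4-/- and 0.31 ± 0.07 in Ptger4+/+ cells. Itpr3, a calcium release channel gene, fell to -1.14 ± 0.07 in cells labelled Ptger4-/- and -0.92 ± 0.07 in Ptger4+/+ cells. The potassium channel gene Kcnn4 fell to -0.54 ± 0.06 in cells labelled Ptger4-/- and -0.82 ± 0.06 in Ptger4+/+ cells. With PGE2, 0 of the 10 passed in cells labelled Ptger4-/-, while 1 rose and 1 fell in Ptger4+/+ cells, where 9.11% of all features rose and 17% fell. Stim1, the calcium sensor gene of the endoplasmic reticulum, rose there by 0.27 ± 0.06, and with PGE2 it stood at -0.42 ± 0.06 in Ptger4-/- over Ptger4+/+ cells. Kcnn4 was the gene that fell, to -0.57 ± 0.06, and its difference of PGE2 responses, Ptger4-/- minus Ptger4+/+, was 0.56 ± 0.09. Among 10 genes of calmodulin and its kinases, 1 rose and 1 fell in cells labelled Ptger4-/- and 2 rose and 1 fell in Ptger4+/+ cells at 2 h, beside the same shares of all features, with the calmodulin gene Calm3 at -0.53 ± 0.06 in both.

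Of 16 genes for proteins that bind, anchor or inhibit calcineurin, 3 rose and 0 fell at 2 h in cells labelled Ptger4-/-, and 3 rose and 1 fell in Ptger4+/+ cells. Ppif, a cyclophilin gene, rose by 0.55 ± 0.06 in cells labelled Ptger4-/- and 0.57 ± 0.06 in Ptger4+/+ cells. With PGE2, 0 passed in cells labelled Ptger4-/-, while 1 rose and 3 fell in Ptger4+/+ cells, where 9.11% of all features rose and 17% fell. Lrrc10 was the gene that rose, by 0.80 ± 0.11. Its difference of PGE2 responses, Ptger4-/- minus Ptger4+/+, was -1.21 ± 0.15 (limma adjusted p = 0.00324). It was the 1 gene of the 16 that passed that test, where 3.33% of all features passed as lower. Over all features at 2 h, 11.6% rose and 11.7% fell in cells labelled Ptger4-/-, and 9.71% rose and 11.4% fell in Ptger4+/+ cells, and these shares hold for the next 2 lists too. The 9 measured Nfat5 targets had 4 rises and 1 fall at 2 h in cells labelled Ptger4-/- and 1 rise and 1 fall in Ptger4+/+ cells. The amino acid transporter gene Slc38a2 rose by 1.12 ± 0.12 in cells labelled Ptger4-/- and 0.56 ± 0.12 in Ptger4+/+ cells. S100a4 fell to -1.04 ± 0.05 in cells labelled Ptger4-/- and -0.99 ± 0.05 in Ptger4+/+ cells. None of the 9 targets passed the test of a difference between the anti-IgM responses, where 1.74% of all features did. With PGE2, 0 of them passed in cells labelled Ptger4-/-, while 1 rose and 2 fell in Ptger4+/+ cells, where 9.11% of all features rose and 17% fell. Between the genotypes with PGE2, 0 were higher and 1 lower, where 15.9% of all features were higher and 11% lower. The difference of the PGE2 responses passed for S100a4 alone, at -0.36 ± 0.07 (limma adjusted p = 0.0189), where 3.33% of all features passed as lower. Of 11 genes of diacylglycerol and related calcium signalling, 1 rose and 4 fell at 2 h in cells labelled Ptger4-/-. In Ptger4+/+ cells 0 rose and 6 fell at 2 h. Rasgrp2, a Rap activator gene, then stood at -2.21 ± 0.07 in cells labelled Ptger4-/- and -1.93 ± 0.07 in Ptger4+/+ cells.

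Markers of cell types were read as ratios only. Over all features at 2 h, 11.6% rose and 11.7% fell in cells labelled Ptger4-/-, and 9.71% rose and 11.4% fell in Ptger4+/+ cells. With PGE2, 0.00888% rose and 0.138% fell in cells labelled Ptger4-/-, and 9.11% rose and 17% fell in Ptger4+/+ cells. Between the genotypes with PGE2, 15.9% were higher and 11% lower. The marker counts below stand beside these shares. B cell markers moved with the stimuli: 4 of 6 fell and 1 rose at 2 h in either genotype, and with PGE2 1 of 6 fell in cells labelled Ptger4-/- while 3 rose in Ptger4+/+ cells. Of 6 T cell markers, 1 rose at 2 h in either genotype (Cd3g, by 0.37 ± 0.05 in cells labelled Ptger4-/- and 0.40 ± 0.05 in Ptger4+/+ cells) and 0 passed at 24 h. Their ratios with PGE2 ran between -0.37 and 0.04 in cells labelled Ptger4-/- and between -0.07 and 0.16 in Ptger4+/+ cells. Of 5 NK cell, 3 neutrophil and 4 platelet markers, 0 passed in any of the 5 comparisons by limma. Of 5 monocyte and macrophage markers 1 rose at 2 h in either genotype, and with PGE2 1 rose in Ptger4+/+ cells (Adgre1, by 0.69 ± 0.05). Of 5 dendritic cell markers 1 rose and 1 fell at 2 h in either genotype and 1 rose with PGE2 in Ptger4+/+ cells. Of 2 red cell markers, Hba-a1 fell at 2 h by 0.38 ± 0.05 in cells labelled Ptger4-/- and rose by 0.20 ± 0.05 in Ptger4+/+ cells, and the difference passed (-0.57 ± 0.07, limma adjusted p = 0.0237). With PGE2 Hba-a1 rose by 0.43 ± 0.05 in Ptger4+/+ cells. In Ptger4-/- over Ptger4+/+ cells with PGE2, where Rcan1 was higher, 3 of 6 B cell markers were lower, Cd79a at -1.18 ± 0.06 and Cd22 at -0.77 ± 0.08 among them. Adgre1 was lower there at -0.83 ± 0.05, 1 other monocyte and macrophage marker was higher, and the dendritic cell marker Siglech was lower at -0.34 ± 0.07. The part of other cells in the results for the 9 genes was not tested.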

How the data were processed

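RNA of mouse splenic B cells was measured on 10 two-colour oligonucleotide arrays. Per the labels' protocols, column-purified total RNA was amplified from a T7 promoter and carried Cy3 or Cy5. The authors deposited, for each probe and array, 1 ratio of the dyes, taken here as log2; their background correction and normalisation are not given in the sources used here. A 16-bit scanner allows log10 ratios of at most 4.82 in size, and the lowest deposited value was -9.03, so base 10 was set aside. Each array's sign was set from its dye labels. Of 25344 probes, 21111 had 1 symbol and 4233 none; symbols were updated for 3974 probes through RefSeq synonyms (GRCm38.p6). Probes of a gene were averaged, giving 22533 features. All arrays entered 1 limma fit (limma 3.58.1, R 4.3.3) with 5 group coefficients and a dye effect (4 residual and 3.13 prior degrees of freedom), and 8 contrasts were tested. The procedure was tested on simulated data. Alternatives covered the dye effect, centring, scaling, single probes, a limit of 0.01, natural logs, a minimum fold of 1.5 and leaving out each array. Another used only the arrays compared and also left out the dye effect. With single probes, a gene counted as called if any of its probes passed. The 9 genes and the gene lists were chosen with earlier results of these data known. Named genes were the 9 genes, up to 2 genes per list, direction and comparison, taken by p, and the 3 nearest genes of each member called in at least 2 comparisons; the choice among these was made with their values known. No intensities or probe sequences were used, and no filter on low signal could be applied.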

Additional observations from a re-analysis of the deposited data

Results flagged for a closer look

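The response of Rcan1 to PGE2 at 24 h differed between the genotypes by the test of the difference itself: 0.84 ± 0.09 on the log2 scale in Ptger4-/- minus Ptger4+/+ (2 arrays against 2, limma adjusted p = 0.00204). The ratio with PGE2 was -0.08 and -0.24 in cells labelled Ptger4-/- and -0.93 and -1.07 in Ptger4+/+ cells, below 0 on 4 of 4 arrays. Rcan1 was measured by 1 probe.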

How the results depend on the processing

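Of the 1296 values of the 9 genes recomputed under 18 alternatives, 1239 kept their side of the limit, 49 no longer passed and 8 newly passed. The 49 could come only from values that passed in the main fit, and most values did not pass there. Reading the values as natural logs left every p-value unchanged, so its 72 values could not change side. The sign turned in 42 of the 1239, all of them values that did not pass, and in 0 of the others. The number of the 9 genes called with PGE2 in Ptger4+/+ cells, 3, was 1 without the dye effect, with only the arrays compared, at a limit of 0.01 and with a minimum fold of 1.5. Between the genotypes with PGE2 it was 1 in place of 3 with only the arrays compared and with the minimum fold. The minimum fold also left 1 gene, Nfatc1, at 2 h in either genotype. For the difference of the PGE2 responses the count of 1 became 2 with single probes and 0 with only the arrays compared or the minimum fold. With single probes a gene counted if any of its probes passed, and Nfat5 was added by the last of its 3 probes alone. When each array was left out in turn, the counts ran between 4 and 6 in cells labelled Ptger4-/- and 5 and 6 in Ptger4+/+ cells at 2 h, stayed at 0 with PGE2 in cells labelled Ptger4-/-, ran between 1 and 3 with PGE2 in Ptger4+/+ cells, ran between 1 and 4 for the genotypes compared with PGE2, and stayed at 1 for the difference of the PGE2 responses. Read as Cy3 over Cy5, the net number of immediate-early genes at least 2-fold higher at 2 h would be -8 in place of 8, and every direction would turn. Counts over all features ranged between 994 and 5872 at 2 h in cells labelled Ptger4-/- and 752 and 5407 in Ptger4+/+ cells, between 0 and 167 with PGE2 in cells labelled Ptger4-/- and 251 and 6427 in Ptger4+/+ cells, between 510 and 6672 for the genotypes compared with PGE2, between 0 and 475 for the genotypes' difference in anti-IgM response, between 123 and 3147 for their difference in PGE2 response and between 0 and 65 for the genotypes without PGE2. No paired analysis was possible because the labels give no replicate numbers. Where a value changed, the cause was not tested.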
